A study of Mus musculus with 12 samples.

Results

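The radiation response of Cbfb-MYH11 hematopoietic stem and progenitor cells was followed in 6 of the 12 RNA sequencing libraries of the study. They were chosen by their labels as the irradiated (IR) and unirradiated (NIR) libraries of Cbfb-MYH11 (CM) mice, 3 of each, and were read as 3 pairs because the labels give each CM animal 1 library of either kind. CM mice carry the gene fusion that inv(16) creates in acute myeloid leukemia, and were taken at a preleukemic stage. LSK cells (lineage-negative, Sca1-positive, c-Kit-positive) were sorted from their bone marrow, exposed outside the body to 3.5 Gy and harvested 24 h later, and the NIR cells passed through the same incubation without irradiation. The other 6 libraries are the IR and NIR pairs of 3 wild-type (WT) mice, handled in the same way. The library names of all 6 CM libraries carry the letters CHW, which the labels do not explain. For the driver of the fusion allele, the age of the mice and any agent that switches the allele on, the labels used here give nothing.

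The LSK gate holds the stem cells and multipotent progenitors of mouse marrow. Ionizing radiation breaks DNA, the ATM and ATR kinases sense the breaks, and the p53 protein is stabilised and switches on its target genes. Some targets halt the cell cycle, some promote death, some repair DNA or adjust metabolism, and others, such as Mdm2, end the response. p53 acts mainly as a protein that is stabilised, so the level of its own mRNA need not move. The cyclin-dependent kinase inhibitor Cdkn1a also acts through the repressor complex DREAM, which lowers the genes of mitosis.

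Promoters of 2 types are described, and 2 examples of each are shown. Sequences are the 250 bases before a RefSeq transcription start (GRCm38.p6, the assembly of mm10), 5′ to 3′ on the gene's strand. In the promoters of Cdkn1a and Zfp365, both targets of p53, capitals mark a match of 20 bases to the p53 consensus: 2 adjacent half-sites of 10 bases, each with its core intact, and at most 2 mismatches in all. The Cdkn1a match has 1 mismatch and lies at bases 51 to 32 before the start (window chr17:29090729-29090978, plus strand). The Zfp365 match has 2 mismatches, at bases 63 to 44 (window chr10:67912663-67912912, minus strand).
Cdkn1a: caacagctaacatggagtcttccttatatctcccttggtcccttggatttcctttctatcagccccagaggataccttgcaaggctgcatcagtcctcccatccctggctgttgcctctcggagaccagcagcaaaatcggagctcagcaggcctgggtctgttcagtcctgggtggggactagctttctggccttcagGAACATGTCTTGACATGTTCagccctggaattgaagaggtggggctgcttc
Zfp365: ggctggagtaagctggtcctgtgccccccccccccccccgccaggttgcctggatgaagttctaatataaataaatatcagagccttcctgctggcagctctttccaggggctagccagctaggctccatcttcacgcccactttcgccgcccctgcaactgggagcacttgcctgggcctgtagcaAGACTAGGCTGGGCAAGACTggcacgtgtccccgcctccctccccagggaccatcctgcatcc

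Such a match was found in the windows of 4 of the 101 genes of the p53 groups that have one (3.96%), against 0.163% of all 27025 genes with a window. The other holders were Rps27l and Ckap2. Of the genes with a window that rose by at least 0.5 in log2 CPM in all 3 CM pairs, 1 of 88 had a match (1.14%), Zfp365. Of those called higher after irradiation in WT cells, 2 of 110 had one (1.82%). Many p53 sites are known to lie in introns or farther away, outside these windows. In the promoters of the mitosis genes Kif11 (window chr19:37376132-37376381, plus strand) and Mki67 (window chr7:135716380-135716629, minus strand), capitals mark CCAAT, bound by NF-Y, and TTTGAA, the core of the element read by the DREAM complex, on either strand.
Kif11: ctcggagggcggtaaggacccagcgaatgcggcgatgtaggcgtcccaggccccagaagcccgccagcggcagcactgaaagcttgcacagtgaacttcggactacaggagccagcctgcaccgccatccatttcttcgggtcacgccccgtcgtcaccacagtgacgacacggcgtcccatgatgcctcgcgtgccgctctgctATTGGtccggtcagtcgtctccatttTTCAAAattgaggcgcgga
Mki67: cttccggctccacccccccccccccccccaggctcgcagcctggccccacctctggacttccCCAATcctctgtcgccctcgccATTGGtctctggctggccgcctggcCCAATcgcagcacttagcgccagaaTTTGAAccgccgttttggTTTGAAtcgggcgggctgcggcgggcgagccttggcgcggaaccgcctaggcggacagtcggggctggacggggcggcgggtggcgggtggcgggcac

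Both letter groups were present in 12 of the 42 mitosis genes with a window (28.6%), against 6.45% of all genes with a window. CCAAT was present in 29 of the 42 (69%), against 37.5%, and TTTGAA in 13 (31%), against 18.3%. The 2 motifs share no position, and a match describes letters only.

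Before the responses, the 6 libraries themselves have to be described, because they did not fall into groups by irradiation alone. Levels are CPM, read counts scaled to the TMM library size. Mecom, a transcription factor of stem cell maintenance, stood at 1.24, 24.6 and 1.04 CPM in NIR cells of CM animals 1, 2 and 3, and at 0.841, 17 and 10.4 CPM in their IR cells. Hlf, another stem cell factor, followed the same order, with 20, 127 and 18.8 CPM in NIR and 18.2, 94.7 and 60.7 CPM in IR. Both libraries of animal 1 were thus low in these genes, both of animal 2 high, and those of animal 3 lay apart, low in NIR and high in IR cells. Ly6a, which encodes Sca1, ran the other way, at 306, 46.7 and 457 CPM in NIR and 323, 49.7 and 144 CPM in IR.

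**Figure D1:**
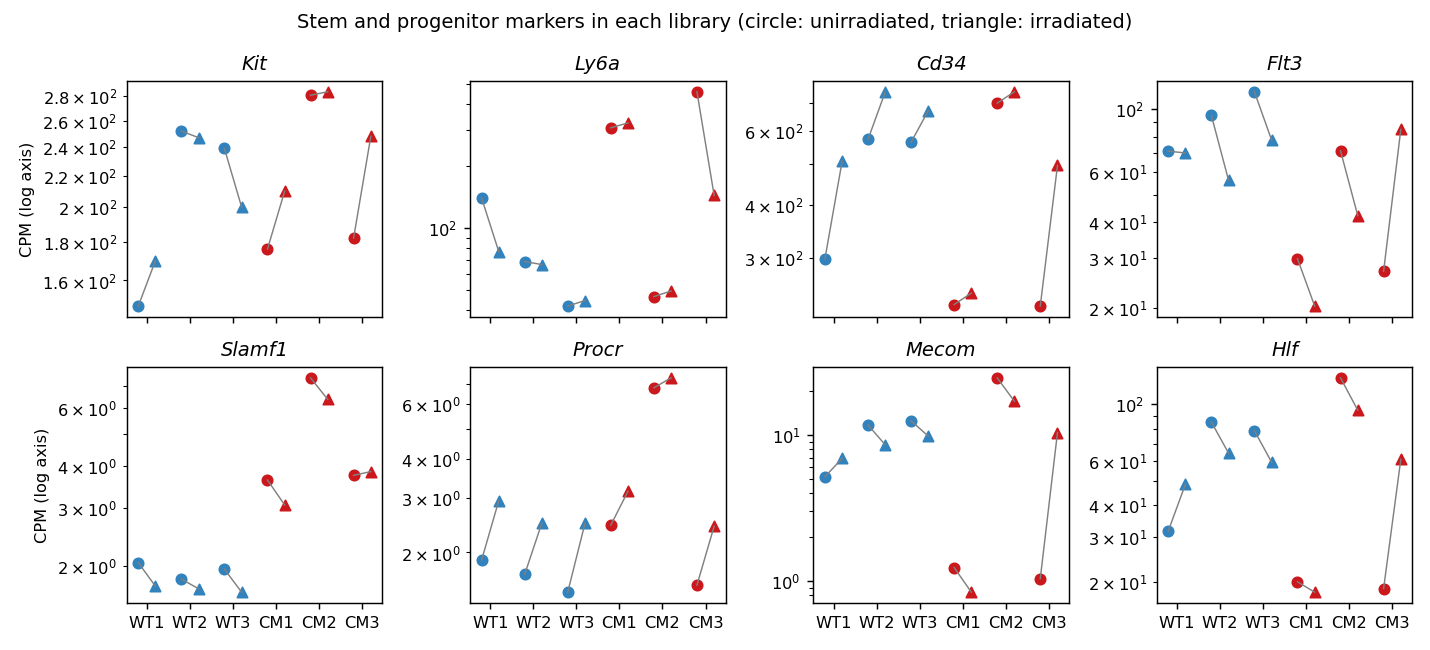
CPM (log axis) of 8 LSK marker genes in each of the 12 libraries; circles are unirradiated and triangles irradiated cells, and a line joins the libraries of 1 animal (blue WT, red CM). In CM animal 3 the line is steep for Mecom and Hlf, while the libraries of CM animal 1, and those of CM animal 2, lie closer to each other.

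Kit was present in all 6 CM libraries, at 176 to 284 CPM. The globin genes of the erythroid list, 6 of its 26 members, were at 0 counts in all CM libraries. Erythroid RNA was not absent, since the list summed to 719 to 851 CPM in these libraries. Why the globin genes had no counts was not tested. The summed level of 26 macrophage and MHC class II genes was 6080, 1280 and 6170 CPM in NIR cells of animals 1, 2 and 3 and 7210, 1750 and 4730 CPM in IR, none of the 26 being at 0 throughout. The first principal component of the 6 libraries (72.4% of the variance) put NIR and IR of animal 1 at -44.7 and -51, those of animal 2 at 73.2 and 65.9, and those of animal 3 at -49.2 and 5.87. Deviations from the group mean correlated at 0.79, 0.84 and 0.13 between the NIR and IR library of animals 1, 2 and 3. For the NIR library of animal 3 the value was higher, 0.69, with the IR library of animal 1 than with its own partner. The library numbers of animal 3 in the labels also lie in a higher range than those of animals 1 and 2, and what they stand for is not stated. Results are therefore given animal by animal, and the leading counts also without animal 3. In RNA from a mixed gate, fewer cells of a type and less RNA per cell cannot be told apart.

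Within a pair, the change of a gene is its log2 CPM in IR minus that in NIR cells of the same animal (prior count 2). The SD of this change over 14599 genes tested was 0.329 in animal 1, 0.432 in animal 2 and 0.687 in animal 3. A change of at least 1 in either direction was seen for 348, 595 and 1465 genes. Over 11767 genes with a mean above 1 CPM, the changes of animals 1 and 2 correlated at 0.46, and those of animal 3 with either at -0.01 and -0.03. With WT animals 1, 2 and 3, the changes of CM animal 3 correlated at 0.54, 0.06 and 0.08. These correlations are across genes, which are not independent. With the animal as a block, edgeR's quasi-likelihood test called 0 genes upward and 0 downward at the adjusted threshold of 0.05 (0% of 14599 either way). Before adjustment, 530 genes were higher (3.63%) and 435 lower (2.98%) with p under 0.05. DESeq2 with the same block called 74 higher (0.507%) and 21 lower (0.144%). A change of at least 0.5 with 1 sign in all 3 pairs was reached by 119 genes upward (0.815%) and 14 downward (0.0959%). Since edgeR called none, the values below are differences seen in the pairs, and calls named as DESeq2's are those of the alternative tool.

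Genes of the p53 program were among those with the largest increases. Of the 119 genes with a change of at least 0.5 upward in every pair, 19 (16%) belong to the p53 groups described below. These groups also hold 119 genes, of the 14599 tested. They were drawn up with earlier results of these data known, so counts of their members are a description. Ranked by the smallest change over the 3 pairs, among genes at 5 CPM or more in the higher group and without a predicted symbol, 9 of the first 10 are p53 genes and the other is Ccl22. In all 10 the change was largest in animal 2. Below that level, genes outside the p53 groups also rank high: Zfp750 had a smallest change of 2.11 and Tnfrsf11b of 1.96, both picked after their values were seen. Eda2r, a death receptor of the TNF receptor family induced by p53 (chromosome X, 97333841 to 97377209, mm10), stood at 0.585, 1 and 0.337 CPM in NIR cells of animals 1, 2 and 3 and at 2.74, 17.8 and 3.64 CPM in IR. Every IR library lay above every NIR library, as it did for 1.57% of all genes, and animal 2 lay far above the others. The opposite order held for 0.986% of all genes. The log2 fold change was 3.33 ± 0.38 (SE, n = 3 pairs, edgeR adjusted p = 0.188, DESeq2 adjusted p = 7.69e-18). The smallest adjusted p of edgeR, 0.0997, was shared by Trp53inp1 and Il21r. Trp53inp1, a p53 target that promotes arrest and death (chromosome 4, 11156441 to 11174379), was the most even of the group. It stood at 18.3, 15.7 and 17.7 CPM in NIR and 38.3, 52.8 and 44.5 CPM in IR, a log2 fold change of 1.38 ± 0.12 (DESeq2 adjusted p = 1.34e-18). Il21r, the receptor of interleukin 21, was picked after its values were seen. It stood at 7.54, 6.77 and 8.72 CPM in NIR and 13.5, 15.1 and 18.6 CPM in IR, and the groups did not overlap.

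**Figure D2:**
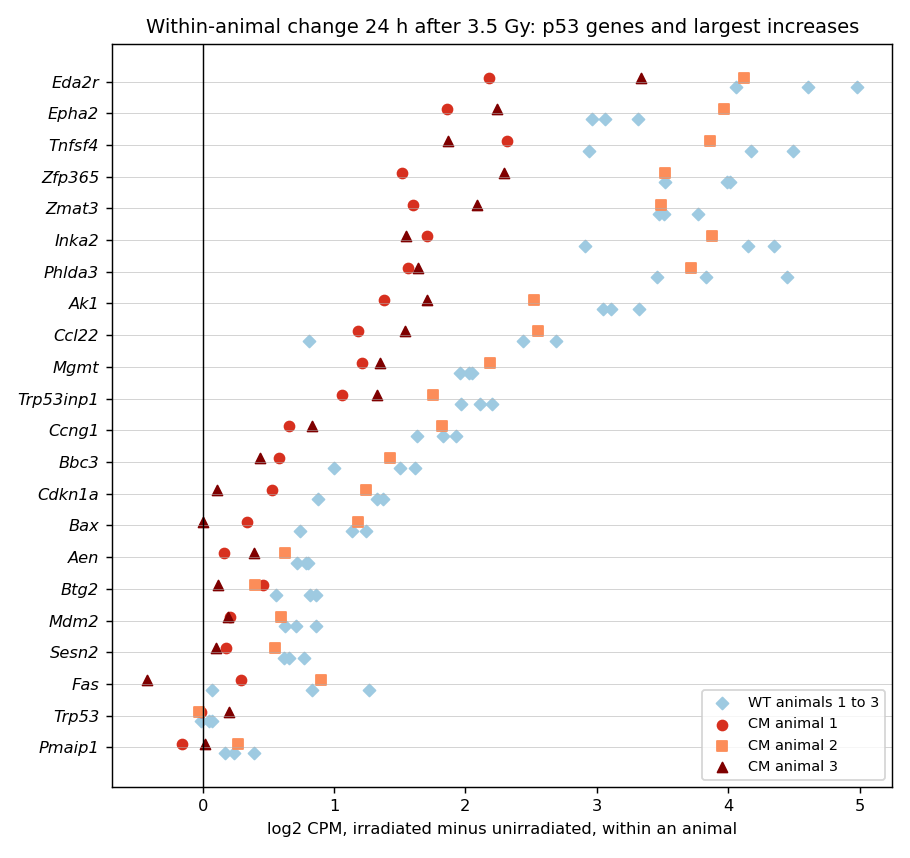
Log2 CPM of irradiated minus unirradiated cells within each animal for the p53 genes always named and the 10 genes with the largest smallest change in CM; red symbols are the CM animals and blue diamonds the WT animals. CM animal 2 lies at or near the WT diamonds for most of the upper genes, CM animals 1 and 3 lie to their left, and Trp53 and Pmaip1 lie near 0 in all CM animals.

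The p53 genes were described in 6 groups by role, 119 tested genes in all. Of these, 52 had a higher level in all 3 pairs, against 11.4% of all genes, and 9 a lower one, also against 11.4%. Before adjustment, p was under 0.05 for 42 genes upward (35.3%, against 3.63% of all genes) and 4 downward (3.36%, against 2.98%). DESeq2 called 24 higher and 1 lower, against 0.507% and 0.144% of all genes. The median change was 0.14, 0.25 and 0.13 in animals 1, 2 and 3, beside 0.01, -0.01 and 0 over all genes. The groups were not alike, and their counts of 1 sign in all pairs are to be read beside 11.4% of all genes each way.

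The feedback group holds the genes that report on and restrain p53, and 5 of its 10 members were higher in all pairs and 0 lower. Ccng1, which encodes cyclin G1 (chromosome 11, 40748552 to 40755286), stood at 164, 113 and 176 CPM in NIR and 260, 400 and 312 CPM in IR. Each IR library lay above all NIR libraries, and the log2 fold change was 1.10 ± 0.21 (edgeR adjusted p = 0.355, DESeq2 adjusted p = 2.89e-05). Mdm2, the ubiquitin ligase that degrades p53, stood at 96.2, 84.5 and 104 CPM in NIR and 111, 128 and 118 CPM in IR. These groups did not overlap either, but its changes of 0.21, 0.6 and 0.19 were small, and neither edgeR nor DESeq2 called it (DESeq2 adjusted p = 0.234). Pidd1, which assembles a caspase-activating platform, changed level by 0.25, 0.49 and 0.49 (DESeq2 adjusted p = 0.0369). Trp53 itself had changes of -0.01, -0.03 and 0.2.

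Arrest genes were higher in all pairs for 8 of 15 members and lower for 2. Cdkn1a, the p21 inhibitor whose promoter is printed above (gene at chromosome 17, 29090979 to 29100722), stood at 297, 160 and 281 CPM in NIR and 428, 379 and 303 CPM in IR. All IR values were above all NIR values, by little in animal 3. Its changes were 0.53, 1.24 and 0.11, with a log2 fold change of 0.63 ± 0.21 that neither edgeR nor DESeq2 called (DESeq2 adjusted p = 0.171). Zmat3, an RNA-binding regulator of splicing induced by p53 (chromosome 3, 32334794 to 32365665), had the largest difference of the group, from 9.33, 10.9 and 8.38 CPM to 28.3, 123 and 35.8 CPM. Its NIR levels were nearly equal in the 3 animals, and its IR level in animal 2 stood apart (DESeq2 adjusted p = 1.73e-06). Btg2, an antiproliferative cofactor, had changes of 0.46, 0.4 and 0.12. Cdkn1b, which encodes the p27 inhibitor, went the other way. It stood at 61.5, 35 and 50.2 CPM in NIR and 50.2, 23.6 and 34.9 CPM in IR, a log2 fold change of -0.46 ± 0.07 (edgeR adjusted p = 0.234, DESeq2 adjusted p = 0.000163).

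Death genes were higher in all pairs for 8 of 21 members and lower for 1. Tnfrsf10b, the TRAIL receptor, stood at 6.45, 10.3 and 8 CPM in NIR and 9.78, 24.5 and 15.3 CPM in IR (changes of 0.6, 1.25 and 0.93, DESeq2 adjusted p = 7.47e-07). Bbc3, the BH3-only protein PUMA, stood at 4.51, 4.61 and 4.25 CPM in NIR and 6.77, 12.5 and 5.77 CPM in IR, without overlap (DESeq2 adjusted p = 0.0757). Bax, a pore-forming member of the BCL2 family, had changes of 0.34, 1.18 and 0, so its level in animal 3 was the same in both libraries. Fas, a death receptor, had changes of 0.29, 0.9 and -0.42, and Pmaip1, the BH3-only protein NOXA, of -0.16, 0.27 and 0.02. Aen, an apoptosis-enhancing nuclease, had changes of 0.16, 0.63 and 0.39 (DESeq2 adjusted p = 0.0427).

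Repair genes were divided, with 4 of 12 higher and 4 lower in all pairs. Mgmt, which removes alkyl groups from guanine (chromosome 7, 136894611 to 137128188), stood at 2.73, 3.67 and 2.06 CPM in NIR and 6.35, 16.8 and 5.3 CPM in IR (log2 fold change 1.60 ± 0.19, DESeq2 adjusted p = 1.87e-10). Its groups did not overlap. Ercc5, an endonuclease of nucleotide excision repair, had changes of 0.31, 0.86 and 0.22, and Polk, a translesion polymerase, of 0.09, 0.52 and 0.23. Neither was called by either tool. Of the nonhomologous end joining genes, 2 of 21 were higher (9.52%) and 3 lower (14.3%) in all pairs, against 11.4% of all genes each way. Homologous recombination with the Fanconi genes had 4 of 33 higher (12.1%) and 8 lower (24.2%), and damage sensing 0 of 25 higher and 5 lower (20%).

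Metabolic p53 targets were higher in all pairs for 8 of 23 tested members and lower for 0. Ak1, an adenylate kinase, stood at 1.1, 3.52 and 1.24 CPM in NIR and 2.91, 20.3 and 4.1 CPM in IR. The NIR value of animal 2 exceeded the IR value of animal 1, so the groups overlap although each animal's change was at least 1.38 (DESeq2 adjusted p = 1.85e-13). Ephx1, an epoxide hydrolase, had changes of 0.64, 1.08 and 0.79 (DESeq2 adjusted p = 0.0934), and Dcxr, a xylulose reductase, of 0.69, 1.5 and 0.48 (DESeq2 adjusted p = 0.00856). Sesn2, which restrains mTORC1 signalling, had changes of 0.18, 0.55 and 0.1.

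The group of growth restraint and other effectors had the most members with the larger differences. Of its 39 tested members, 20 were higher in all pairs and 2 lower. DESeq2 called 14 higher, against 0.507% of all genes. Phlda3, which holds back AKT, stood at 2.9, 2.4 and 2.39 CPM in NIR and 8.61, 31.9 and 7.49 CPM in IR (DESeq2 adjusted p = 1.53e-06). Epha2, an ephrin receptor, stood at 0.918, 0.902 and 0.877 CPM in NIR and 3.4, 14.4 and 4.24 CPM in IR (DESeq2 adjusted p = 1.39e-11). Zfp365, which protects stalled replication forks and whose promoter is printed above, stood at 0.891, 1.27 and 0.513 CPM in NIR and 2.59, 14.8 and 2.6 CPM in IR (DESeq2 adjusted p = 4.05e-10). In each of the 3 the groups did not overlap, and the IR level of animal 2 was 3.41 to 5.69 times the next highest. Tnfsf4, the OX40 ligand, and Inka2, an inhibitor of the kinase PAK4, also had their largest change in animal 2, with changes of 2.32, 3.86 and 1.87 and of 1.71, 3.88 and 1.55. The long noncoding RNA Trp53cor1 (lincRNA-p21) departed from it: its changes were 0.87, 1.59 and 2.01, largest in animal 3 (DESeq2 adjusted p = 1.73e-06).

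The WT animals gave a choice of radiation genes whose fold changes rest on other mice. The spread between replicates was estimated over all 12 libraries, the CM pairs included. Genes whose CM pairs disagree are therefore less likely to be called in WT. The counts below of genes with 1 sign in all CM pairs are partly favoured by that choice, so they are a description. In WT cells, edgeR with the animal block called 137 genes higher after irradiation (0.938% of those tested) and 26 lower (0.178%). Of the 137, 122 were higher in all 3 CM pairs, against 11.4% of all genes, and 1 was lower in all 3. Without animal 3, 126 were higher in both remaining pairs, against 4480 of all 14599 genes. Their median change was 0.35 in CM animal 1, 0.75 in animal 2 and 0.44 in animal 3. In the WT animals, where the genes were chosen, it was 1.1, 1.27 and 1.28. Of the 137 genes, 100 had their largest CM change in animal 2, 28 in animal 3 and 9 in animal 1. For the largest change, the share over all genes was not counted. A change of at least 1 upward was reached by 58 of the 137 in animal 2, 38 in animal 3 and 25 in animal 1. Over all 14599 genes it was reached by 360 in animal 2, 1049 in animal 3 and 246 in animal 1.

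**Figure D3:**
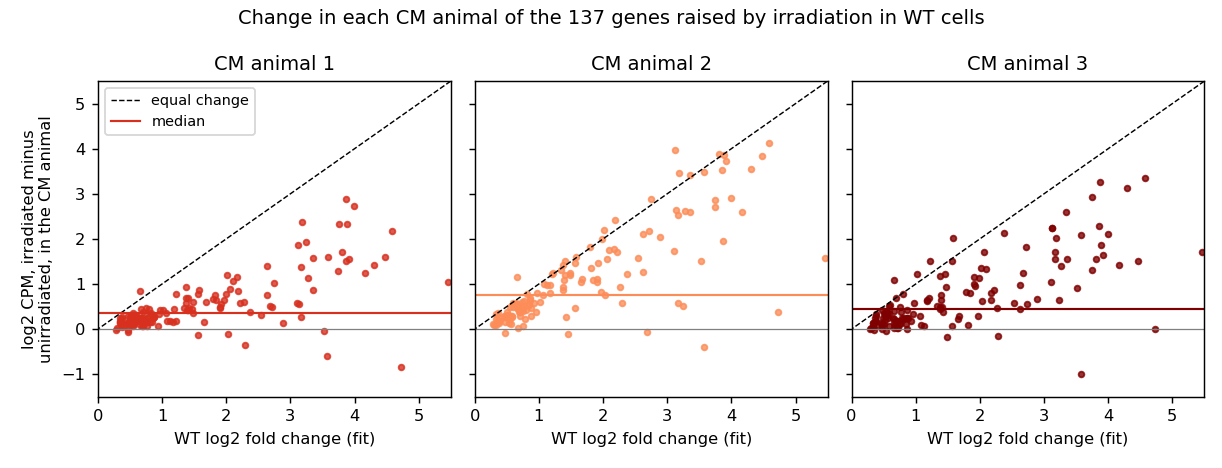
Change within each CM animal (log2 CPM, irradiated minus unirradiated) against the fitted WT log2 fold change for the 137 genes called higher in WT; the dashed line marks equal change and the colored line the median. The points of CM animal 2 lie nearer the dashed line (median 0.75) than those of CM animals 1 and 3 (medians 0.35 and 0.44).

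The starting levels of these 137 genes lay on both sides of those of WT cells, with 72, 68 and 77 of them below the WT NIR mean in CM animals 1, 2 and 3. For 40 of the 137 the mean log2 CPM of the CM NIR cells differed from that of WT by at least 0.5. The median of log2 CPM in NIR cells minus the mean of the WT NIR cells was -0.05, 0.01 and -0.04 in animals 1, 2 and 3. In IR cells the same median was -0.86, -0.21 and -0.79, and 125, 93 and 134 of the 137 lay below the WT mean. The WT IR values are among those that chose the genes, which favours high WT values, so the distance from WT is a description. The order among the CM animals may rest on that choice too, so it is also a description. Over 11767 genes with a mean above 1 CPM, the changes of CM animals 1, 2 and 3 correlated with those of WT animal 2 at 0.5, 0.74 and 0.06. With WT animal 3 the values were 0.49, 0.68 and 0.08, and with WT animal 1 they were 0.11, 0.3 and 0.54. CM animal 2 is also the CM animal with the lowest macrophage and MHC class II sum and the highest Mecom and Hlf in NIR cells. The part of those values in its larger changes was not tested. Outside the p53 groups, 100 of the 137 genes remained, and 86 of them were higher in all CM pairs. Of the 26 genes lowered in WT, 22 were lower in all CM pairs, with medians of -0.12, -0.64 and -0.56 in animals 1, 2 and 3.

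The difference between the CM and WT responses was tested in the same model. edgeR called 0 genes in either direction (0% higher and 0% lower). Before adjustment, 161 genes had a higher response in CM (1.1%) and 256 a lower one (1.75%) with p under 0.05. Every DESeq2 call is named here. DESeq2 called 1 gene with a higher response (0.00685%), AF067061, and 3 with a lower response (0.0205%), Cd209a, Cd209e and Fat1; AF067061 and Fat1 were picked from that result. Cd209a and Cd209e encode C-type lectins of dendritic cells. Cd209a (chromosome 8, 3743395 to 3748984) stood at 21, 4.84 and 22.8 CPM in CM NIR and 32, 9.26 and 31.3 CPM in CM IR, changes of 0.6, 0.93 and 0.46. In WT the changes were 2.52, 2.11 and 2.2, and the difference of responses was -1.61 ± 0.16 (edgeR adjusted p = 0.408, DESeq2 adjusted p = 3.08e-12). The NIR levels of CM animals 1 and 3 were above all WT NIR levels (5.46 to 9.13 CPM), and that of animal 2 was below them. Cd209e stood at 1.81, 0.508 and 2.25 CPM in CM NIR cells, against 1.06 to 2.51 CPM in WT NIR cells. Its changes were 0.75, 1.27 and 0.98 in CM and 2.32, 2.94 and 2.59 in WT. The difference of responses was -1.63 ± 0.23 (DESeq2 adjusted p = 9.1e-05). The part of the starting level in these differences was not tested.

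Fat1, an atypical cadherin, stood at 0.745, 1.22 and 0.526 CPM in CM NIR and 1.8, 7.44 and 1.45 CPM in CM IR. Its WT IR levels were 7.34 to 8.56 CPM, so animal 2 reached the WT level and animals 1 and 3 did not. The difference of responses was -2.35 ± 0.38 (edgeR adjusted p = 1, DESeq2 adjusted p = 0.000332). AF067061 was at 0 to 0.036 CPM in 5 of the 6 CM libraries and at 1.88 CPM in the IR library of animal 3, so almost all of its reads in CM came from that library. The p53 genes named above mostly had smaller fitted responses in CM, and none passed edgeR: the difference was -0.72 ± 0.17 for Trp53inp1 (unadjusted p = 0.0046, adjusted p = 1) and -0.57 for Cdkn1a (unadjusted p = 0.0911, adjusted p = 1).

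Ccnd1, cyclin D1 of the entry into the cell cycle (chromosome 7, 144929931 to 144939925), had a larger change in 2 CM animals than in any WT animal. It stood at 7.1, 3.81 and 5.45 CPM in NIR and 22.4, 6.28 and 22.1 CPM in IR. The IR value of animal 2 lay below the NIR value of animal 1, so the groups overlapped, but the changes were 1.65, 0.72 and 2.01. Here animal 2 had the smallest change, the reverse of the p53 genes. The log2 fold change was 1.49 ± 0.22 (edgeR adjusted p = 0.234, DESeq2 adjusted p = 8.31e-09). The WT changes were 0.58, 0.75 and 0.47, and the difference of 0.89 did not pass edgeR (unadjusted p = 0.0229, adjusted p = 1). WT levels were higher, at 42.4, 25.1 and 28.1 CPM in NIR and 63.4, 42.2 and 39.1 CPM in IR. Every CM IR value thus lay below every WT NIR value, and the larger CM changes started from a lower level.

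Genes of mitosis, the spindle, kinetochore and cytokinesis genes, were lower by small and even amounts. Of 48 tested, 30 were lower in all 3 pairs, against 11.4% of all genes, and 0 were higher in all 3. The fitted change was negative in 46. Before adjustment, 23 were lower with p under 0.05, against 2.98% of all genes, and DESeq2 called 3 lower, against 0.144%. The median change was -0.14, -0.09 and -0.16 in animals 1, 2 and 3, and the fitted median of -0.13 compares with -0.11 in WT. Without animal 3, 36 of the 48 were lower in both remaining pairs, against 4347 of all 14599 genes.

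Kif11, the spindle motor whose promoter is printed above (gene at chromosome 19, 37376382 to 37421863), stood at 330, 309 and 377 CPM in NIR and 294, 277 and 340 CPM in IR. The levels of the animals overlapped, but each pair had nearly the same change, -0.17, -0.16 and -0.15 (edgeR adjusted p = 0.578). Mki67, the antigen of cycling cells, had changes of -0.15, -0.28 and -0.17 (DESeq2 adjusted p = 0.0439). Cenpe, a kinetochore motor, had changes of -0.2, -0.2 and -0.21 (DESeq2 adjusted p = 0.0091), and Anln, a scaffold of the cleavage furrow, of -0.17, -0.24 and -0.35 (DESeq2 adjusted p = 0.0393). Cdk1, the kinase that drives mitosis, had changes of -0.07, 0.1 and -0.12, so not every gene of the list was lower. The DNA replication list had 10 of 48 genes lower in all pairs (20.8%, against 11.4% of all genes) and 1 higher, with a fitted median of -0.02.

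**Figure D4:**
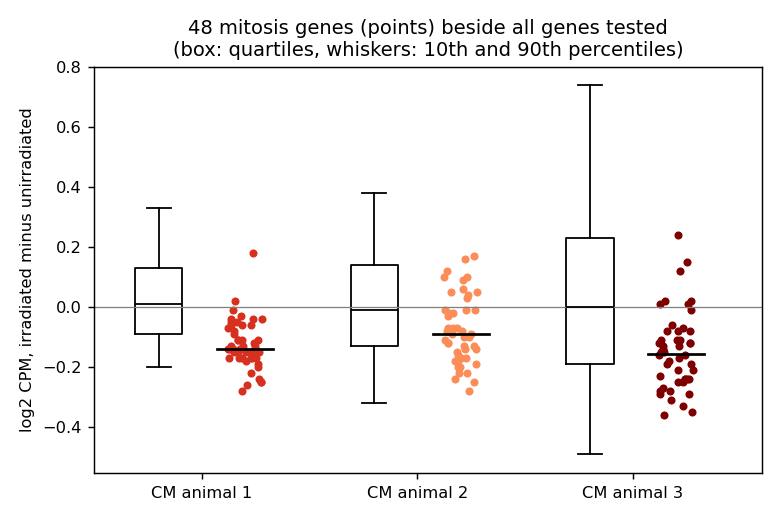
Change (log2 CPM, irradiated minus unirradiated) of the 48 mitosis genes in each CM animal (points, short line at the median) beside all genes tested (box: quartiles, whiskers: 10th and 90th percentiles). The 3 medians lie at -0.14, -0.09 and -0.16, and the points are spread less widely than all genes.

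Other named genes had lower levels in all pairs, and DESeq2 called some of them. Trib3, a pseudokinase induced by ATF4, stood at 46.6, 43.5 and 38.2 CPM in NIR and 41, 24.6 and 26.2 CPM in IR (changes of -0.19, -0.82 and -0.55, DESeq2 adjusted p = 0.0279). Stc2, the secreted glycoprotein stanniocalcin 2, stood at 38.8, 22.5 and 31.3 CPM in NIR and 32.6, 14.1 and 17.9 CPM in IR (DESeq2 adjusted p = 0.0055). Cth, which makes cysteine, had changes of -0.3, -0.39 and -0.64 (DESeq2 adjusted p = 0.0409). Both mitochondrial folate enzymes named were lower in all pairs: Aldh1l2 by changes of -0.29, -0.37 and -0.29 and Mthfd2 by -0.16, -0.13 and -0.15, neither called by either tool. Of the 28 genes of the unfolded protein and integrated stress response list, 11 were lower in all pairs (39.3%, against 11.4% of all genes). In the same list 1 gene, the p53 target Sesn2, was higher. Its endoplasmic reticulum chaperones did not share a direction, with changes of 0.03, 0.1 and -0.19 for Hspa5.

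Scd1, the stearoyl-CoA desaturase, stood at 52.2, 68 and 50.1 CPM in NIR and 41.7, 22.6 and 26.2 CPM in IR, without overlap (DESeq2 adjusted p = 0.00109). Klf2, a quiescence factor of lymphoid and endothelial cells, stood at 15.4, 18.1 and 16.7 CPM in NIR and 13, 4.84 and 9.46 CPM in IR. Those groups did not overlap, and the difference was not called (DESeq2 adjusted p = 0.0504). Both differences were smallest in animal 1. Bnip3, a mitophagy receptor, had changes of -0.16, -0.66 and -0.6 (DESeq2 adjusted p = 0.0134), and the transcription factor Sp4 of -0.36, -0.43 and -0.25 (DESeq2 adjusted p = 0.00317). Cbfb, the gene of the fusion, had changes of -0.23, -0.21 and -0.16 in CM and of 0.07, -0.04 and -0.12 in WT, and neither the CM change nor the difference passed edgeR (adjusted p = 0.553 and 1). Counts per gene do not separate the fusion transcript from the normal one.

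Lineage genes differed unevenly between the animals. Over erythroid genes with a mean of at least 1 CPM (15 genes), the median change was 0.03, -0.39 and -1.11 in animals 1, 2 and 3. Of the 20 tested, 9 were lower in all pairs (45%, against 11.4% of all genes) and 0 higher. Rhd, a blood group antigen, stood at 1.36, 0.584 and 1.35 CPM in NIR and 1.01, 0.0235 and 0.215 CPM in IR. It was lower in each pair, and neither edgeR nor DESeq2 called it. The summed level of the 26 erythroid genes was 796, 836 and 851 CPM in NIR and 719, 797 and 742 CPM in IR, lower in each pair.

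Some eosinophil granule genes had higher levels in IR cells. Epx, eosinophil peroxidase (chromosome 11, 87863998 to 87875536), stood at 2.06, 0.724 and 1.01 CPM in NIR and 2.58, 3.61 and 11.6 CPM in IR, and Prg2, the major basic protein, at 2.22, 0.838 and 1.92 CPM and 2.39, 4.05 and 14.8 CPM. The groups did not overlap, the difference was smallest in animal 1, and neither gene was called (DESeq2 adjusted p = 0.0757 and 0.148). WT changes of Epx were 0.21, 0.15 and 0.43. WT levels were far higher: in NIR cells Epx stood at 67.7, 73.8 and 39.1 CPM and Prg2 at 92.4, 75.9 and 42.9 CPM. Every CM IR value of both genes lay below every WT NIR value. DESeq2 called 2 other genes of the list higher, both near or under 1 CPM and picked after their values were seen. Prg3, a second major basic protein, stood at 0.12, 0.0889 and 0.216 CPM in NIR and 0.324, 0.223 and 1.32 CPM in IR (DESeq2 adjusted p = 0.00187, edgeR adjusted p = 0.355). Ear1, an eosinophil ribonuclease, stood at 0.0266, 0 and 0.337 CPM and 0.0961, 0.117 and 1.14 CPM (DESeq2 adjusted p = 0.0058, edgeR adjusted p = 0.425). Both were higher in each pair. Their CM values all lay below the WT NIR values, 2.68 to 6.18 CPM for Prg3 and 3.32 to 6.94 CPM for Ear1. Of the 11 eosinophil genes tested, 5 were higher in all pairs (45.5%, against 11.4% of all genes). The summed level of the 12 listed was 27.2, 13.4 and 31.8 CPM in NIR and 31.1, 27.8 and 48.4 CPM in IR. Late neutrophil genes were higher in all pairs for 7 of 19 (36.8%, against 11.4% of all genes). S100a8 stood at 4.9, 3.09 and 8.8 CPM in NIR and 7.06, 6.29 and 35.4 CPM in IR, and the neutrophil granule protein Ngp at 0.386, 2.71 and 2.05 CPM and 0.697, 4.67 and 20.6 CPM. In both genes the IR library of animal 3 stood apart. WT NIR levels were 121, 63.4 and 49 CPM for S100a8 and 79.4, 36.2 and 21.4 CPM for Ngp, above every CM value. The summed level of the 20 neutrophil genes was 1510, 451 and 2530 CPM in NIR and 1750, 569 and 1450 CPM in IR, higher after irradiation in animals 1 and 2 and lower in animal 3. Whether mature cells in the sort had a part in these values was not tested.

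**Figure D5:**
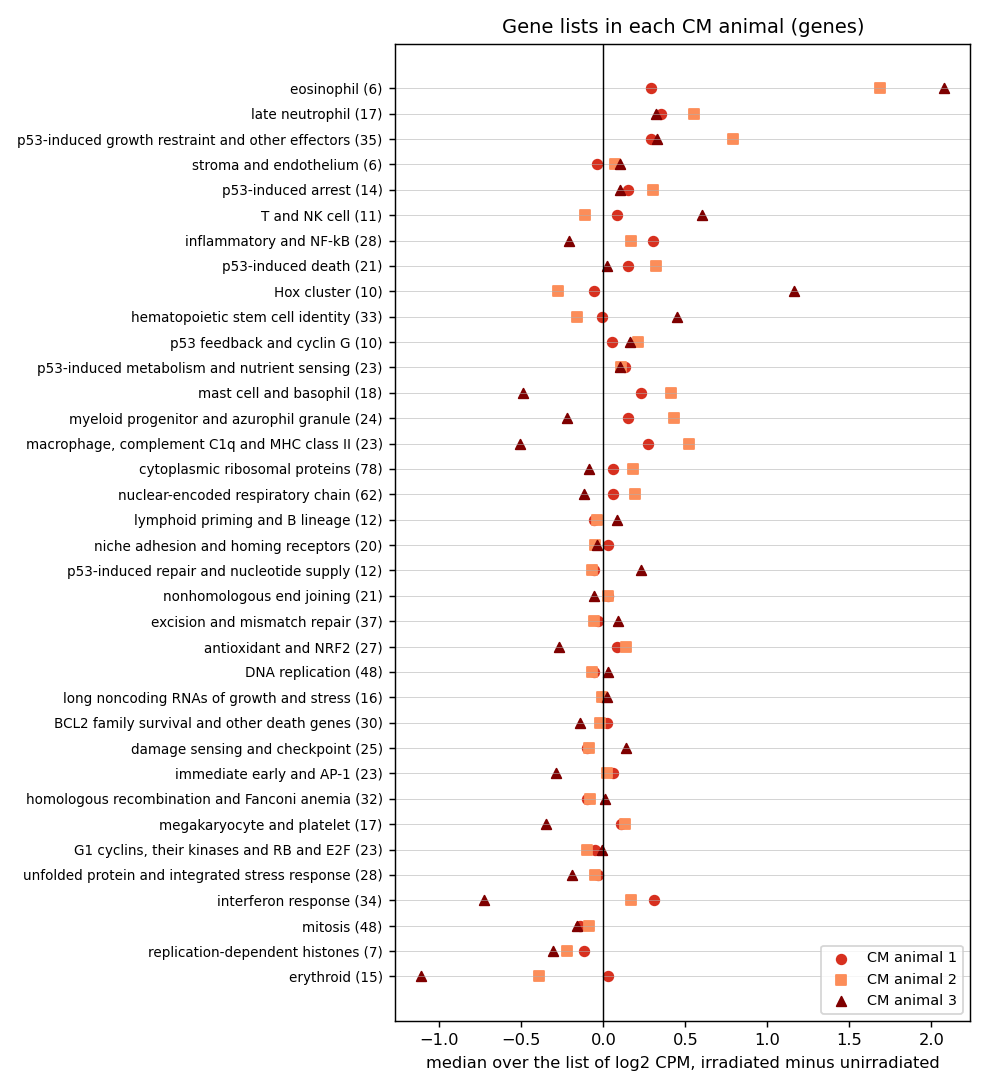
Median change (log2 CPM, irradiated minus unirradiated) of each gene list in CM animals 1, 2 and 3, over members with a mean of at least 1 CPM, their number in brackets. The 3 animals lie close together for mitosis, and far apart for the interferon, erythroid, Hox and stem cell lists.

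In several lists CM animal 3 stood apart from the other CM animals and there was no common direction. The interferon list had medians of 0.31, 0.17 and -0.73 in animals 1, 2 and 3, and 0 of its 35 tested genes had 1 sign in all pairs. The 13 Hox genes tested also had 0 in either direction, with medians of -0.06, -0.28 and 1.16 over the 10 of at least 1 CPM. The stem cell list had medians of -0.01, -0.16 and 0.45, and the macrophage and MHC class II list of 0.27, 0.52 and -0.51. In each of these lists WT animal 1 differed from WT animals 2 and 3 in the same direction. Over all tested members, the medians in WT animals 1, 2 and 3 were -0.93, 0.09 and 0.14 for interferon genes. They were 0.24, -0.39 and -0.2 for Hox, 0.19, -0.09 and -0.08 for stem cell and -0.18, 0.48 and 0.44 for macrophage and MHC class II genes. Of the 28 inflammatory genes tested, 5 were higher in all pairs (17.9%, against 11.4% of all genes) and 0 lower. Outside that list, Ccl22, a chemokine of dendritic cells, stood at 12.5, 2.24 and 13.3 CPM in NIR and 28.4, 13.2 and 38.7 CPM in IR (DESeq2 adjusted p = 0.053).

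Across the 2 genotypes, 57 genes had a change of at least 0.5 upward in all CM and in all WT pairs, which is 47.9% of the 119 such genes in CM and 17.2% of the 331 in WT (2.27% of all genes). Downward, 0 genes were shared by the 14 in CM and the 166 in WT (1.14% of all genes). Of the 74 genes that DESeq2 called higher in CM, 52 were among the 137 that edgeR called higher in WT, 70.3% of the first list and 38% of the second. At the threshold itself, AV039307, just inside, had a smallest change of 0.502, and B3galnt1, just outside, of 0.499. The depth of the CM libraries ran from 77 to 88.5 M reads counted in genes, and no pair of them agreed within sampling noise.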

How the data were processed

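RNA was measured in 12 libraries, 6 of them from CM mice. Cells were sorted and then irradiated or only incubated, per the labels' protocols, and stranded libraries were made with ribosomal RNA removal. The submitters' processing notes name bcl2fastq 2.18.0.12, TopHat2 and HTSeq 0.6.1p1 and the build mm10. The sources used here do not give their settings, the strand setting included, so overlapping genes on opposite strands and close paralogs are uncertain. The deposited count table holds whole reads per gene and was used for all main results. The deposited RPKM values were used only for alternatives, as log2(RPKM + pseudocount) with limma.

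Of 25078 genes, filterByExpr (minimum count 10, minimum total 15) kept 14599. edgeR 4.0.16 (R 4.3.3) fitted all 12 libraries with TMM, a term for each animal and the irradiation response of each genotype, leaving 4 residual degrees of freedom. Adjusted p values are Benjamini-Hochberg over all genes tested, threshold 0.05, two-sided. The labels give the NIR and IR library of an animal 1 animal number, which is the pairing; deviations from the group means correlated at 0.79, 0.84 and 0.13 within CM pairs. Alternatives were DESeq2 1.42.0, limma-voom (limma 3.58.1), other scalings, filters and designs, and left-out libraries. The methods were tested on simulated counts.

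The members, the 36 gene lists and the tests were chosen with earlier results of these data known. Named genes were a fixed set of p53 genes, the 10 per direction with the largest smallest change over the pairs at 5 CPM or more and no predicted symbol, up to 3 members of each list at 1 CPM or more by the same order, and the 3 smallest p of the difference of responses. Other genes are given to describe a list or were picked after their values were seen. Some genes that the rule would name are not reported here.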

Additional observations from a re-analysis of the deposited data

Results flagged for a closer look

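In 3 named genes, all 3 CM pairs changed one way after irradiation and all 3 WT pairs the other. The share of all genes tested that did so was not counted. Ly6d, a surface protein of early B lineage cells, had changes of 0.21, 0.57 and 1.36 in CM and of -1.96, -1.7 and -1.9 in WT. The CM response minus the WT response was 2.79 on the log2 scale (edgeR unadjusted p = 0.000248, adjusted p = 1). Ly6d was named because that p is among the 3 smallest of the difference, so the gene was chosen by these values. CM NIR levels were 0.266, 0.0635 and 0.364 CPM, below the 0.814 to 1.22 CPM of WT NIR cells. Blnk, the B cell linker, had changes of 0.17, 0.85 and 0.16 in CM and of -0.4, -0.6 and -0.55 in WT, a difference of 0.9 (edgeR unadjusted p = 0.0122, adjusted p = 1). Ndufa12, a subunit of respiratory complex I, had a difference of 0.14, with changes of at most 0.15 in any animal (edgeR unadjusted p = 0.111, adjusted p = 1). No difference passed the adjusted threshold.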

How the results depend on the processing

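The CM libraries hold 77 to 88.5 M counts, and genes at low CPM rest on fewer reads. Which of depth and the spread between the 3 pairs limits a gene was not tested. edgeR with the replicate block called 0 genes in CM; without the replicate block it called 1 higher (Trp53inp1), and with no filter on low counts 2 higher (Trp53inp1 and Il21r). DESeq2 with the block called 74 higher and 21 lower, and for the difference of responses 1 higher and 3 lower. DESeq2 without the block, added after seeing the data, called 18 higher. limma-voom, RPKM and the CM libraries alone gave 0. Leaving out CM libraries gave 0 to 3 genes higher and 0 to 1 lower: without animal 1, Gria3 and Mmp2 higher and Car1 lower, and without the IR library of animal 2 and no block, Trp53inp1, Epha2 and Zmat3 higher. These were picked after their values were seen. The counts of genes with a change of at least 0.5 in all pairs, 119 and 14, were 236 and 112 with no filter, 59 and 3 with RPKM and a pseudocount of 0.1, and 16 and 0 with a pseudocount of 1. Over pairs left out they were 293 to 358 and 80 to 188, since 2 pairs meet the rule more easily. The cause of the other shifts was not tested.

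Of 2882 comparisons of named genes with an alternative, 37 turned the sign, all with CM libraries left out, and 49 passed the threshold. Over left-out libraries the log2 fold changes of these genes ran from -0.32 to 0.59 for Fas, -0.07 to 0.13 for Pmaip1, -0.15 to 0.29 for Trp53 (-0.01 to 0.09 for whole pairs), -0.04 to 0.84 for Pidd1, -0.37 to 1.1 for Procr (-0.09 without the NIR library of animal 3), -0.24 to 0.78 for Itga2b, -0.22 to 1.51 for Nkg7, -0.19 to 0.61 for Blnk, -0.14 to 1.48 for Ly6d, -0.24 to 0.68 for Mertk (-0.2 without the IR library of animal 1), -0.03 to 0.61 for Slc40a1, -0.06 to 0.65 for Ccl3 and -0.19 to 0.92 for Prss34. They ran from -0.34 to 0.07 for Ptprc, -0.22 to 0.03 for Cd44, -0.23 to 0.02 for Itgb1, -0.38 to 0.04 for Slc7a11, -0.02 to 0.55 for Snhg15, -0.05 to 0.28 for Xrcc5, -0.23 to 0.12 for H2ax (0.01 without the IR library of animal 3) and -0.07 to 0.32 for Cox5a. The other 90 named genes kept their sign.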
